A study of Mus musculus with 15 samples.

Results

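A set of 50 genes of the mitotic spindle, the kinetochore and cytokinesis was followed in mouse C2C12 myotubes that were left untreated or given vehicle or the herbal extract Jakyak-gamcho-tang (JGT). The genes were chosen by symbol, from a list of proteins that run the late stages of cell division. All 50 symbols were found among the 42807 of the deposited table, and all 50 passed the filter on low counts, among 14461 genes tested. C2C12 myoblasts, an established mouse line, leave the cell cycle and fuse into multinucleated myotubes when serum is lowered. The cells had been differentiated for 6 days before a treatment of 24 h. The 5 groups of 3 mRNA libraries were non-treated cells, a vehicle of 0.1% DMSO, and JGT at 20, 100 and 500 µg/mL, each 5-fold above the dose before it. JGT here is a lyophilised hot-water extract of equal weights of peony root and licorice root, and 500 µg/mL was the dose calculated to leave 80% of the myotubes viable. Nothing in the labels tells whether the 3 libraries of a group were separate cultures. The p-values therefore speak only for the spread among these libraries, which could be technical.

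Mitosis is driven by CDK1 bound to B-type cyclins, and by the Polo and Aurora kinases. Kinetochores are the protein plates on centromeres that catch spindle microtubules, kinesins move and shorten those microtubules, and the midzone and the contractile ring divide the cell. Most of these genes are transcribed late in the cell cycle and are little transcribed in cells that have left it. Myotube nuclei do not divide, whereas a differentiated C2C12 culture also holds mononucleated cells, among them reserve cells that did not fuse. The total RNA of a culture mixes both, so fewer dividing cells and less RNA per dividing cell cannot be told apart.

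Promoters of late cell cycle genes often carry a cell cycle genes homology region (CHR), which MuvB complexes bind, and CCAAT boxes, which the factor NF-Y binds. MuvB joins the repressor DREAM in quiescent cells and the activators B-MYB and FOXM1 in dividing ones. RefSeq promoters (GRCm38.p6, 250 bases before to 50 after the start of transcription) were at hand for 42 of the 50 genes, all but Foxm1, Cdc25c, Aurkb, Pbk, Spc24, Kif20a, Tpx2 and Incenp. They were searched on both strands for TTTGAA or TTCGAA as the CHR and for CCAAT. The 120 bases before the start are printed for 8 genes that show how the elements are arranged, among them genes that fell far (Depdc1a, Cdc20), genes that fell less (Cdk1, Prc1) and a gene with no CHR match (Cenpe). Letters run 5′ to 3′ on the gene's strand, and capitals mark a CHR or CCAAT match on either strand.
Cenpe: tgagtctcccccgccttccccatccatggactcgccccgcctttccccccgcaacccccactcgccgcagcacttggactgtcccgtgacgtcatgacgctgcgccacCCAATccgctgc
Depdc1a: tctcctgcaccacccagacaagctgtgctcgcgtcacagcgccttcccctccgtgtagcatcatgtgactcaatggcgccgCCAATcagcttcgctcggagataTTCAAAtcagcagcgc
Cdc20: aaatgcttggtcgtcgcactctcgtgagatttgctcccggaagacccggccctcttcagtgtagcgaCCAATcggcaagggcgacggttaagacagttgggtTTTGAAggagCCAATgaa
Espl1: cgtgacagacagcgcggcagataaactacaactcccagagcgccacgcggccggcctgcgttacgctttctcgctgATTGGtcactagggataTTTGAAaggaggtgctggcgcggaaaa
Kif11: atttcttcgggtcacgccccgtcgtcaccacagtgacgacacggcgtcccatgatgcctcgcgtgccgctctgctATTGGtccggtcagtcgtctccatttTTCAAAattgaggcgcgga
Top2a: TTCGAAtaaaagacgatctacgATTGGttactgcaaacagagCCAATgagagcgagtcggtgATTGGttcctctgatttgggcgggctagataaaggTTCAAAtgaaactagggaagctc
Cdk1: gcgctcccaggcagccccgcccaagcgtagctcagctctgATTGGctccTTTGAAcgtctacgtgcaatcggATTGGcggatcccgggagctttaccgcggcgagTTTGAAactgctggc
Prc1: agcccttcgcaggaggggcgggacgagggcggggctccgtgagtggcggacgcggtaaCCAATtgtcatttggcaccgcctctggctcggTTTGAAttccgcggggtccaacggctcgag
In Depdc1a (chr3:159495313-159495432, + strand), Cdc20 (chr4:118437344-118437463, − strand), Kif11 (chr19:37376262-37376381, + strand) and Espl1 (chr15:102296173-102296292, + strand), a single CHR match began at positions −16, −18, −19 and −27 from the start, with a CCAAT box upstream of it at −39, −53, −45 and −44. Top2a (chr11:99024190-99024309, − strand) and Cdk1 (chr10:69352913-69353032, − strand) carried more than 1 match of each kind. Prc1 (chr7:80294356-80294475, + strand) had its CHR match at −30, counted from the later of its starts in the table. Cenpe (chr3:135212443-135212562, + strand) had a CCAAT box at −12 and no CHR match.

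Of the 42 genes, 33 (78.6%) had a CHR match, against 16.2% of the 10139 tested genes with a promoter in the table and 21.7% of all 27025 genes in it. A CCAAT match was found for 31 (73.8%), against 42.9% and 41.1%. Both elements were present in 28 (66.7%), against 6.77% and 8.61%. Within 50 bases of the start on either side, a CHR match was found for 31 of the 42 (73.8%), against 4.25% of the tested genes, whereas among positions more than 150 bases before the start the shares were 11.9% and 7.85%. CCAAT matches in the 150 bases before the start were found for 71.4% and 31.8%. The elements partly overlapped in 1 of the promoters. The median GC content was 59.0% in the set and 60.7% over the tested genes. Such a match is a string of letters, and binding there was not measured. At 500 µg/mL the median log2 fold change against vehicle, described below, was −1.22 for the 33 genes with a CHR match and −1.23 for the 9 without (Birc5, Ccnb1, Cenpe, Kif18a, Ncaph, Nuf2, Nusap1, Pttg1 and Troap).

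**Figure D1:**
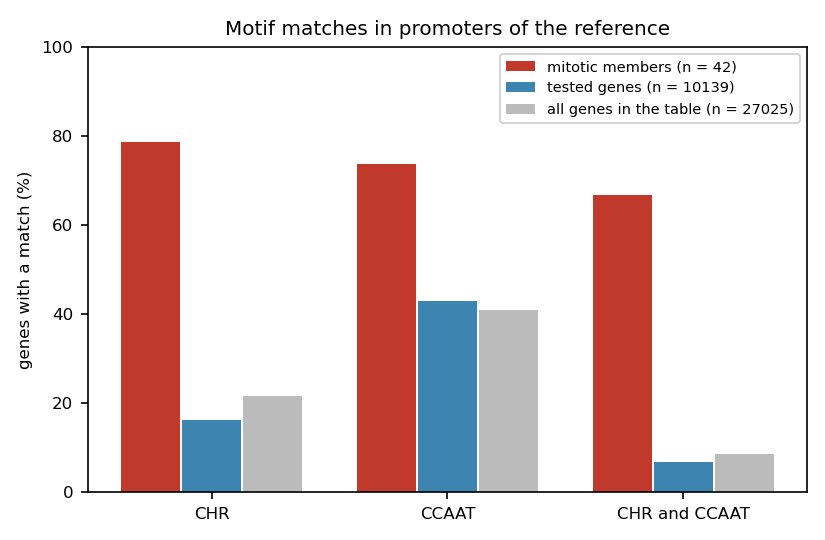
Bars give the percentage of genes with at least 1 match in the RefSeq promoter, 250 bases before to 50 after the start, for the CHR, for CCAAT and for both, in the 42 mitotic genes, the 10139 tested genes and all 27025 genes of the table. The mitotic genes stand at 78.6%, 73.8% and 66.7%, above the other sets for each element.

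Library totals ran from 26012844 to 36854199 counts (median 29613890), so even Cdc25c, the least counted of the set, had 1561 counts over the 15 libraries. JGT 500 µg/mL replicate 2 stands apart from its group over the whole transcriptome, but not in the median of this set. Relative to the vehicle mean, the median of the 50 genes was −1.25, −1.20 and −1.18 in replicates 1, 2 and 3. Single genes differed in either direction, with Troap at −1.91, −1.40 and −1.71 and Top2a at −1.04, −1.17 and −1.04. Replicate 2 was the highest of its group in 18 genes and the lowest in 18. All 15 titles name the same batch, but the control libraries carry sample codes of a different series from the JGT libraries, and a difference between the codes cannot be told apart from one between JGT and controls. Comparisons between doses lie within 1 code series, although, if the labels' stock was only diluted, DMSO rose with the dose from 0.004% to 0.02% and 0.1%. All comparisons with vehicle share the same 3 vehicle libraries.

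The 50 genes stood highest in non-treated cells and lowest at 500 µg/mL. Levels are given in CPM, the counts of a gene scaled to the total of its library. The summed level of the 50 was 1363 ± 17.9 CPM (SD, n = 3) in non-treated cells, 1144 ± 34.0 with vehicle, and 1049 ± 13.2, 922 ± 7.45 and 510.1 ± 3.33 at 20, 100 and 500 µg/mL. The last was 44.6% of the vehicle level. By group mean, all 50 followed the order non-treated, vehicle, 100 µg/mL and 500 µg/mL from high to low. The 20 µg/mL mean lay above vehicle for Kif15, Bub1 and Pbk only. In all 50 genes each of the 3 libraries at 500 µg/mL lay below each of the other 12, which held for 9.39% of the tested genes.

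**Figure D2:**
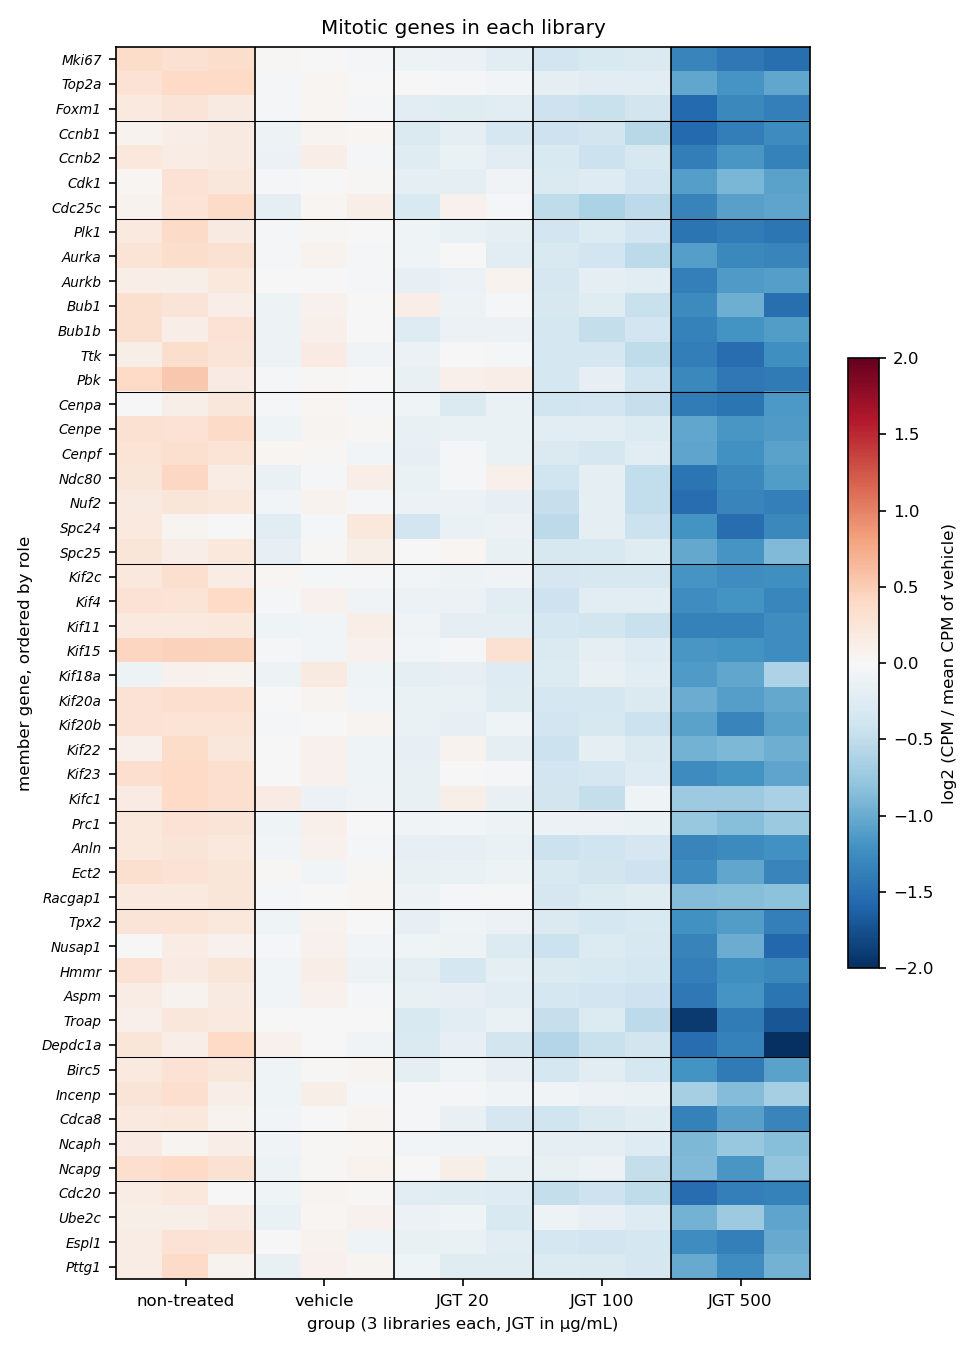
Rows are the 50 genes grouped by role and columns the 15 libraries by group, with colour giving log2 CPM relative to the vehicle mean. The 3 libraries of JGT 500 µg/mL are the lowest in every row, and the non-treated libraries tend to be the highest.

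At 500 µg/mL all 50 genes fell against vehicle, whereas 33.3% of all tested genes were called and 16.8% were called lower (edgeR's quasi-likelihood test, Benjamini-Hochberg adjusted p below 0.05, the meaning of "called" throughout). The median log2 fold change was −1.22, with a range from −1.65 to −0.70, against a median of 0.01 over all tested genes. The largest adjusted p was 6.07e-05, for Kifc1. The falls were unequal: their SD over the genes was 0.21 on the log2 scale, where the median standard error of a single fold change was 0.0759. All 50 were also called lower at 500 than at 100 µg/mL (median −0.89), where 19.7% of tested genes were called, 10.7% lower and 9.05% higher. Without JGT 500 µg/mL replicate 2, 2650 tested genes were called lower and 2339 higher in that comparison, against 1544 and 1309 with it, and the count in the set was still 50. At 100 µg/mL, 34 fell and 16 were not called (median −0.33), against 2.22% of tested genes called lower and 2.09% called higher. At 20 µg/mL none of the 50 was called by edgeR, where 0.325% of tested genes were called in either direction, although 22 had an unadjusted p under 0.05 and the median was −0.14. Nearest to 0 at 100 µg/mL were Incenp (−0.11), Prc1 (−0.12), Ube2c (−0.18) and Ncaph (−0.20), none of them called, and at 20 µg/mL Ncapg stood at −0.01. None of the 50 was called higher in any comparison.

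**Figure D3:**
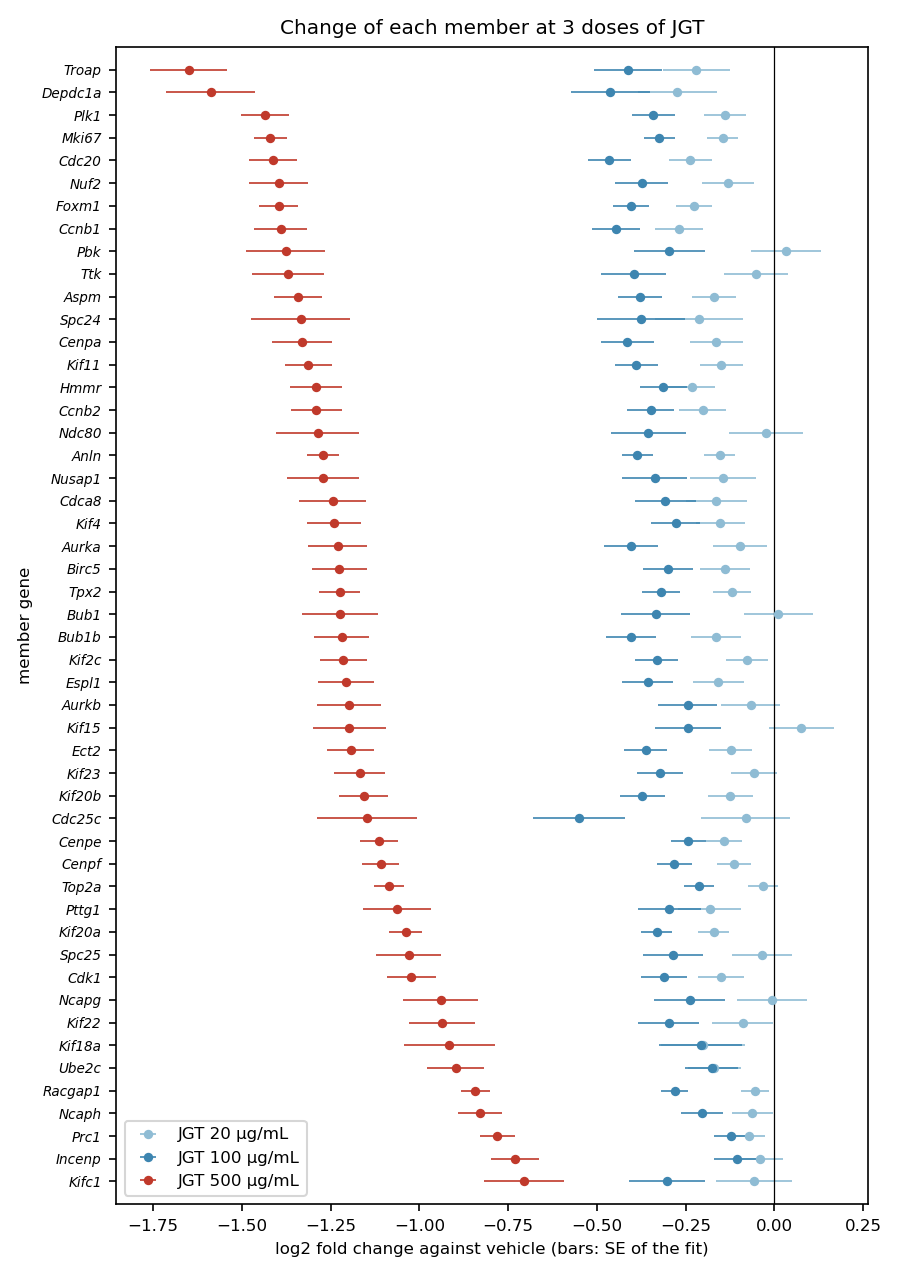
Each row is a gene of the set, ordered by its log2 fold change at 500 µg/mL. Points give the log2 fold change against vehicle at JGT 20, 100 and 500 µg/mL, with bars for the standard error of the fit. The medians are −0.14 and −0.33 at the lower doses, and the points spread between −1.65 and −0.70 at 500 µg/mL.

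Mki67 encodes Ki-67, the coat protein of mitotic chromosomes used as a proliferation marker. It measured 145, 139.9 and 144 CPM in the non-treated libraries and 115, 113 and 111 with vehicle. At 20, 100 and 500 µg/mL it measured 105, 104 and 97.4, then 86.6, 91.6 and 92, then 45.1, 41.8 and 39.4 CPM. No library of one group reached into the range of another. The fall against vehicle at 500 µg/mL was −1.42 ± 0.0461 (log2, SE, adjusted p = 5.27e-15), a 2.68-fold lower level. Foxm1, the transcription factor that switches on late cell cycle genes, had 45.2, 47.3 and 45 CPM without treatment, 38.8, 40.7 and 39.1 with vehicle, 34.2, 33.4 and 33.8 at 20, 29.8, 29.1 and 30.8 at 100 and 13.5, 16.2 and 15.3 at 500 µg/mL. Its groups did not overlap either, and it fell by 0.40 ± 0.0510 on the log2 scale at 100 µg/mL (adjusted p = 5.56e-05) and by 1.40 ± 0.0554 at 500 µg/mL (1.4e-13). At 20 µg/mL its log2 fold change was −0.23, with the smallest adjusted p of the set at that dose, 0.0648. Top2a, the topoisomerase that untangles sister chromatids, had a vehicle level near 75 CPM and fell by 0.21 at 100 and 1.09 at 500 µg/mL.

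The mitotic cyclins, CDK1 and CDC25C, the phosphatase that activates CDK1, all fell at 100 and at 500 µg/mL, 4 of 4 at each. Cdk1 measured 21.6, 25.6 and 24.6 CPM in non-treated cells, 20.8, 20.9 and 21.3 with vehicle, 18.6, 18.3 and 20.0 at 20, 17.1, 17.5 and 16.2 at 100 and 9.78, 11.1 and 10.1 at 500 µg/mL. Its vehicle libraries lay close together and above every JGT library. It fell by 1.02 ± 0.0696 on the log2 scale at 500 µg/mL (adjusted p = 4.49e-10). Ccnb1, cyclin B1, went from 21.4, 24 and 23.7 CPM with vehicle to 17.2, 17.8 and 15.7 at 100 and 7.84, 8.85 and 9.63 at 500 µg/mL, without overlap. Its log2 fold changes were −0.45 ± 0.0683 and −1.39 ± 0.0752. Ccnb2 fell by 1.29 at 500 µg/mL. Cdc25c, with vehicle libraries at 3.52, 4.17 and 4.42 CPM and those at 100 µg/mL at 2.83, 2.61 and 2.81, had the most negative value of the set at 100 µg/mL, −0.55 ± 0.130 (adjusted p = 0.0159). It reached 1.60, 1.90 and 1.94 CPM at 500 µg/mL.

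The mitotic kinases fell within a narrow range at 500 µg/mL, 7 of 7 between −1.43 and −1.20. Plk1, which acts at centrosomes, kinetochores and the midzone, measured 23.4, 26.6 and 23.2 CPM in non-treated cells, 20.0, 20.9 and 20.5 with vehicle, 19.2, 18.6 and 17.9 at 20, 15.7, 17 and 15.7 at 100 and 7.41, 7.77 and 7.48 at 500 µg/mL. The ranges of all 5 groups were separate. Its fall was −0.34 ± 0.0596 at 100 µg/mL and −1.43 ± 0.0666 at 500 µg/mL (adjusted p = 1.41e-12). Aurkb, the kinase of the chromosomal passenger complex, had 9.47, 9.53 and 9.30 CPM with vehicle and 3.64, 4.31 and 4.37 at 500 µg/mL (log2 −1.20 ± 0.0907). At 100 µg/mL its value of −0.24 was not called (adjusted p = 0.109), although its libraries there, at 7.45, 8.25 and 8.16 CPM, all lay below vehicle. Bub1b, the checkpoint protein BUBR1 that holds back anaphase, fell from 18, 20.5 and 19.2 to 7.54, 8.35 and 8.85 CPM (−1.22 ± 0.0763). Bub1 and Pbk belonged with Kif15 to the genes nearest to or above vehicle at 20 µg/mL, at 0.01 and 0.03, neither called, and fell by 1.22 and 1.38 at 500 µg/mL. Aurka and Ttk, the spindle pole and checkpoint kinases, fell by 1.23 and 1.37 there.

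Centromere and kinetochore genes fell 7 of 7 at 500 µg/mL, with a median of −1.29. Cenpa, the histone variant that marks the centromere, measured 16.9, 17.8 and 17.1 CPM with vehicle, 13, 13.2 and 12.5 at 100 and 6.57, 6.27 and 7.80 at 500 µg/mL. Its fall was −0.41 ± 0.0757 (adjusted p = 0.00232) and then −1.33 ± 0.0832. Ndc80, the microtubule-binding subunit that gives its complex its name, lay at 7.07, 7.68 and 8.56 CPM with vehicle and 2.84, 3.16 and 3.56 at 500 µg/mL. Its fall of −1.29 ± 0.117 was called, and its −0.35 at 100 µg/mL was not called (adjusted p = 0.0633). The 4 subunits of the NDC80 complex fell by 1.29 (Ndc80), 1.40 (Nuf2), 1.33 (Spc24) and 1.03 (Spc25). The log2 ratio of Ndc80 to Nuf2 CPM was −0.95 ± 0.144 with vehicle and −0.84 ± 0.114 at 500 µg/mL (SD, n = 3), a difference within the spread of the libraries. That of Spc24 to Spc25 was −0.91 ± 0.0910 and −1.21 ± 0.124, without overlap between the vehicle and 500 µg/mL libraries, and was not tested. In this ratio the 500 µg/mL libraries overlapped with the non-treated libraries and with those at 20 and at 100 µg/mL. The difference from vehicle alone therefore does not show a shift between these subunits. The corona proteins Cenpe and Cenpf fell by 1.12 and 1.11.

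Of the 10 kinesins, all fell at 500 µg/mL and 6 at 100 µg/mL. Kif11, the motor that pushes spindle poles apart, had 20.0, 20.4 and 23.2 CPM with vehicle and 20.2, 18.6 and 18.6 at 20 µg/mL, then 16.6, 16.5 and 15.6 at 100 and 8.31, 8.35 and 9.00 at 500 µg/mL. It showed the largest fall of this class, −1.31 ± 0.0665. Kif20a, a midzone motor needed for cytokinesis, went from 45.4, 46.9 and 43.9 to 35.8, 35.5 and 37 and 22.7, 21.2 and 22.4 CPM with vehicle and at 100 and 500 µg/mL (log2 −0.33 at 100 and −1.04 at 500 µg/mL, both called). Kifc1, a minus-end motor that bundles spindle microtubules, fell least of the 50. It measured 10.1, 8.37 and 8.66 CPM with vehicle, 7.02, 6.49 and 8.55 at 100 and 5.47, 5.45 and 5.79 at 500 µg/mL (log2 −0.70 ± 0.112). Its vehicle and 100 µg/mL libraries overlapped, and those at 500 µg/mL lay below both. Kif15, which backs up Kif11, was the gene with the highest value at 20 µg/mL, 0.08 ± 0.0922, and was not called. Its libraries were at 6.99, 7.11 and 9.04 CPM there and at 7.10, 7.02 and 7.75 with vehicle, and they overlapped. Kif18a, which limits chromosome oscillation, fell by 0.92 ± 0.128 at 500 µg/mL. Its 100 and 20 µg/mL levels were alike, with a log2 difference of −0.01 ± 0.118.

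The midzone and cytokinesis genes split into those that fell as far as the rest and those that fell less. Anln, the contractile ring scaffold anillin, measured 79.7, 82.2 and 79.2 CPM in non-treated cells, 65.8, 72.7 and 67.5 with vehicle, 61.2, 61.4 and 62.6 at 20, 51.1, 52.1 and 54.4 at 100 and 27.4, 28.3 and 29.6 at 500 µg/mL. No 2 groups overlapped, and the fall at 500 µg/mL was −1.27 ± 0.0457 (adjusted p = 2.64e-14). Prc1, which bundles the antiparallel microtubules of the midzone, measured 38.1, 43.3 and 40.2 CPM with vehicle, 38.5, 39.1 and 38 at 20, 37.3, 37.2 and 37.1 at 100 and 24.1, 22.4 and 24.3 at 500 µg/mL. The 3 libraries at 100 µg/mL lay just under the lowest vehicle library, and the change there, −0.12 ± 0.0465, was not called (adjusted p = 0.168), whereas at 500 µg/mL Prc1 fell by 0.78 ± 0.0489. The log2 ratio of Prc1 to Anln CPM was −0.76 ± 0.0217 with vehicle and −0.27 ± 0.0763 at 500 µg/mL (SD, n = 3), with no overlap between the groups, a description without a test. Racgap1, which forms centralspindlin with Kif23, fell by 0.84 ± 0.0403 and Kif23 by 1.17 ± 0.0709. Ect2, the exchange factor that centralspindlin recruits, fell by 1.19. Racgap1 and Anln were the only members called lower at 100 than at 20 µg/mL (−0.23 ± 0.0389, adjusted p = 0.00749, and −0.23 ± 0.0434, 0.0147).

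**Figure D4:**
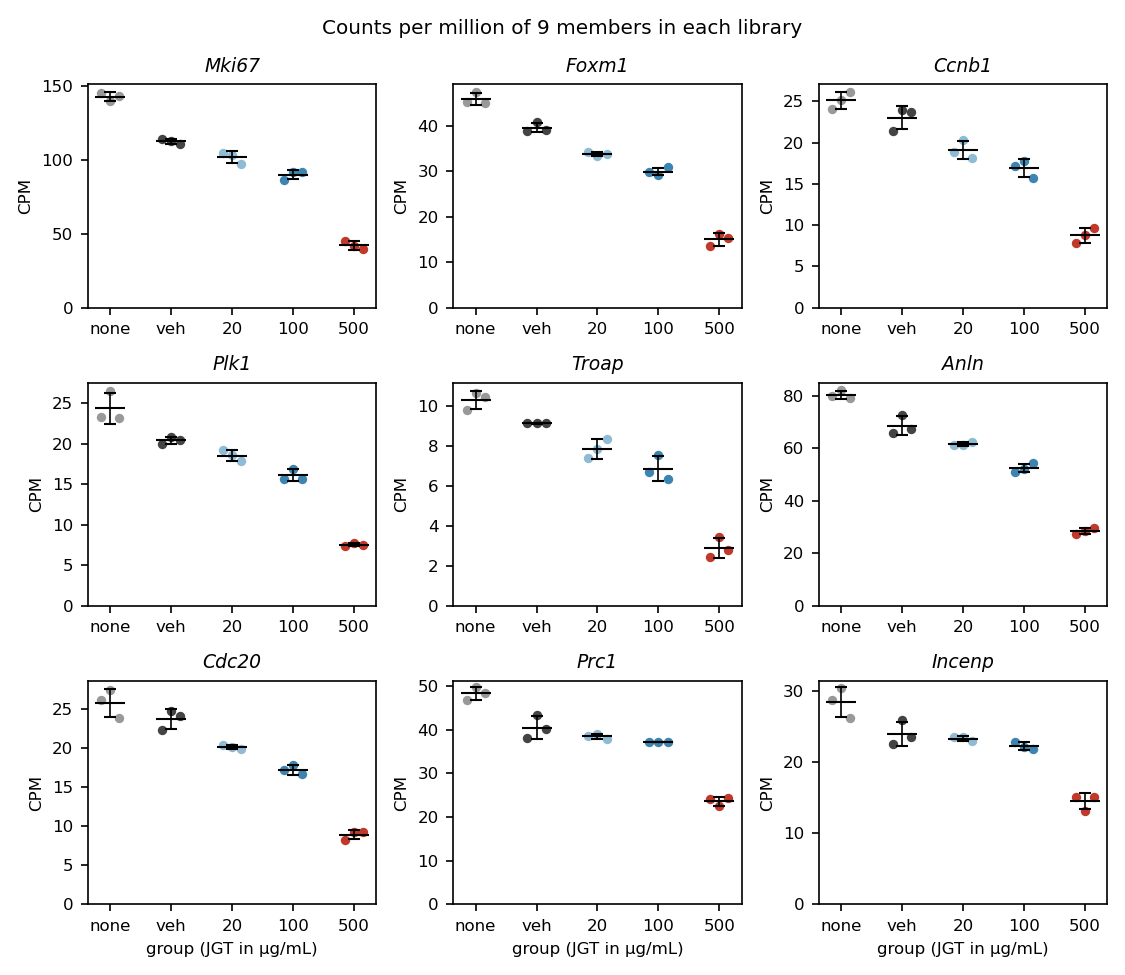
Points are the CPM of single libraries and bars the mean with SD (n = 3) for 9 of the genes in the 5 groups, each panel with its own axis from 0. Mki67, Foxm1, Plk1 and Anln step down from group to group without overlap, whereas Prc1 and Incenp stand highest in non-treated cells, lie close together from vehicle to 100 µg/mL and are lowest at 500 µg/mL.

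Spindle-associated proteins held the largest falls, 6 of 6 at both 100 and 500 µg/mL. Troap, which binds microtubules at the spindle, measured 9.82, 10.7 and 10.5 CPM in non-treated cells, 9.13, 9.14 and 9.17 with vehicle, 7.38, 7.86 and 8.36 at 20, 6.68, 7.56 and 6.37 at 100 and 2.44, 3.46 and 2.79 at 500 µg/mL. Its libraries at 20 and 100 µg/mL overlapped, and those at 500 µg/mL lay far below. Its fall of −1.65 ± 0.108 was the largest of the 50 (adjusted p = 2.43e-10). Depdc1a followed at −1.59 ± 0.125, from 8.45, 7.95 and 7.62 CPM with vehicle to 2.77, 3.14 and 2.01 at 500 µg/mL. Aspm, a spindle pole protein whose loss in humans causes microcephaly, went from 23.5, 26 and 23.8 to 9.04, 10.8 and 8.89 CPM (−1.34 ± 0.0678). Hmmr, which lies on spindle microtubules, had one of the 4 most negative values at 20 µg/mL, −0.23 ± 0.0667, with Depdc1a (−0.27), Ccnb1 (−0.27) and Cdc20 (−0.24), none of them called. Tpx2, the activator of Aurora A, and Nusap1, a microtubule bundler, fell by 1.22 and 1.27 at 500 µg/mL.

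The partners of Aurora B in the chromosomal passenger complex did not fall by the same amount. Birc5, survivin, went from 16.2, 17.5 and 17.9 CPM with vehicle to 7.48, 6.45 and 8.22 at 500 µg/mL (−1.23 ± 0.0774), and Cdca8, borealin, fell by 1.24. Incenp, the scaffold of the complex, measured 22.5, 25.8 and 23.5 CPM with vehicle, 23.5, 23.4 and 22.9 at 20, 22.8, 22.1 and 21.8 at 100 and 15.1, 13.2 and 15.1 at 500 µg/mL. Its groups up to 100 µg/mL overlapped or nearly touched, and its fall at 500 µg/mL was −0.73 ± 0.0677. The log2 ratio of Incenp to Aurkb CPM went from 1.34 ± 0.0959 with vehicle to 1.82 ± 0.220 at 500 µg/mL, and that of Incenp to Birc5 from 0.48 ± 0.0805 to 0.97 ± 0.0807. The libraries of the 2 groups did not overlap in either ratio, which was not tested. The condensin subunits Ncapg and Ncaph, which fold mitotic chromosomes, also lay among the smaller falls, at −0.94 ± 0.107 and −0.83 ± 0.0626, and neither was called at 100 µg/mL. Ncapg measured 9.97, 10.8 and 11.2 CPM with vehicle and 5.77, 4.78 and 6.17 at 500 µg/mL.

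The genes of anaphase onset fell 4 of 4 at 500 µg/mL and 2 of 4 at 100 µg/mL. Cdc20, the activator of the anaphase-promoting complex, measured 26.2, 27.4 and 23.8 CPM in non-treated cells, 22.4, 24.8 and 24.2 with vehicle, 20.4, 20.2 and 19.9 at 20, 17.2, 17.8 and 16.6 at 100 and 8.24, 9.23 and 9.28 at 500 µg/mL. Only the non-treated and vehicle libraries overlapped. It fell by 0.47 ± 0.0604 at 100 µg/mL (adjusted p = 6.91e-05) and by 1.41 ± 0.0665 at 500 µg/mL. Pttg1, securin, which restrains separase, went from 12.6, 14.7 and 14.5 to 6.91, 5.89 and 7.23 CPM (−1.06 ± 0.0953), and Espl1, separase itself, fell by 1.21. Ube2c, the complex's ubiquitin-conjugating enzyme, fell less, −0.90 ± 0.0801, and was level from 20 to 100 µg/mL (−0.01 ± 0.0750). Some of these counts are uncertain because no source used here gives the strand setting of the counting. In GENCODE M21, exons of Ube2c share 592 bases with the opposite-strand gene Tnnc2, a muscle gene with 343190 counts against 10017 for Ube2c. Prc1 shares 911 bases with Rccd1, Ncapg 944 with Lcorl, Kif20a 1271 with Cdc23 and Kif4 832 with Pdzd11 in the same way. Further opposite-strand overlaps include Cdc25c (623 bases with Gm3550), Cdca8 (232 with 9930104L06Rik) and Cdc20 (53 with Elovl1). Ube2c, Ncapg, Kif20a, Kif4, Ccnb1, Kifc1 and Depdc1a had values that were not whole in each of the 15 libraries. The same held for Prc1 in 14 libraries, for Plk1 in 2 and for Nusap1 in 1. RSEM gives such values where it divides reads between features.

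Per kilobase of merged exon, Ccnb2 (13.7 CPM per kb), Cdc20 (12.7) and Mki67 (11.2) were highest with vehicle, and Kif15 (0.662) and Kif18a (0.464) lowest. The size of the fall at 500 µg/mL did not follow the vehicle level, with a Pearson correlation of 0.07 over the 50 genes, which share libraries and depth. Troap and Kifc1, at the ends of the range of falls, had about the same vehicle CPM, 9.15 and 9.06.

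The change from 100 to 500 µg/mL exceeded that from 20 to 100 µg/mL, the dose rising 5-fold in each. It was the more negative of the 2 in all 50 genes. The difference between the steps was itself called for 41 genes, against 2.9% of tested genes in either direction and 2.19% in this one, with a median of −0.66. Those shares rest on the libraries: without JGT 500 µg/mL replicate 2, 1175 tested genes were called lower and 825 higher, against 317 and 102 with it, and 46 genes of the set were called. Without JGT 100 µg/mL replicate 1, 2 or 3, 192, 165 and 199 tested genes were called lower. Troap (−1.05 ± 0.173), Depdc1a (−0.94 ± 0.203), Mki67 (−0.92 ± 0.0763) and Hmmr (−0.90 ± 0.119) had the largest differences. The 9 genes not called were Spc24, Kif18a, Ndc80, Bub1, Spc25, Ncapg, Kif22, Kifc1 and Cdc25c. For Cdc25c the steps were −0.47 ± 0.129 and −0.60 ± 0.144 and for Kifc1 −0.24 ± 0.106 and −0.40 ± 0.112. From 20 to 100 µg/mL, 2 genes were called lower, against 0.429% of tested genes called, 0.131% lower and 0.297% higher. Their median was −0.20. The count was 0 without JGT 100 µg/mL replicate 1, JGT 20 µg/mL replicate 2 or JGT 20 µg/mL replicate 3, and 1 without JGT 20 µg/mL replicate 1 or JGT 100 µg/mL replicate 2. Cdc25c (−0.47), Bub1 (−0.35), Ttk (−0.34) and Ndc80 (−0.33) had the most negative values of this step and were not called, and Incenp (−0.07) and Prc1 (−0.05) were nearly level. From 100 to 500 µg/mL the largest falls were those of Troap (−1.24), Depdc1a (−1.13), Mki67 (−1.10) and Plk1 (−1.09), and the smallest those of Incenp (−0.62), Cdc25c, Racgap1 (−0.56) and Kifc1.

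Vehicle alone stood below non-treated cells in the same genes. All 50 had a negative log2 fold change (median −0.24), and 17 were called lower, against 1.31% of tested genes called in either direction, 0.754% lower and 0.553% higher. In 40 of the 50 the 3 vehicle libraries lay below all 3 non-treated ones, as in 13.6% of tested genes. The largest falls were those of Kif15 (−0.44 ± 0.0909, adjusted p = 0.0186), from 9.79, 10.0 and 9.90 to 7.10, 7.02 and 7.75 CPM, of Top2a (−0.37 ± 0.0415, 0.000404), from 92.1, 99.2 and 98.6 to 73.8, 76.9 and 74.2 CPM, and of Kif23 (−0.36 ± 0.0634, 0.00807). Pbk lay at −0.38 and was not called (adjusted p = 0.0574). Nearest to 0 were Kif18a (−0.03), Nusap1 (−0.08), Spc24 (−0.08) and Ncaph (−0.12), none of them called. Mki67, Foxm1 and Top2a, all 4 midzone genes and 5 of the 10 kinesins were called lower. None of the cyclin and CDK1 genes, passenger proteins, condensins or anaphase genes was called. The class medians lay close together, so the calls do not show a difference between classes. They were −0.24 for midzone genes, −0.29 for kinesins, −0.24 for passenger proteins, −0.23 for condensins, −0.19 for cyclin and CDK1 genes and −0.18 for anaphase genes. The count of 17 rests on every library of both groups, since it dropped to between 5 and 11 when any 1 of them was left out, to 5 without vehicle replicate 1. Over all tested genes the 109 called lower dropped to between 21 and 53 in the same way. Vehicle replicate 1 was the lowest of its group in 34 of the 50 genes. Against non-treated cells in place of vehicle, 38, 49 and 50 genes were called lower at 20, 100 and 500 µg/mL. The median at 500 µg/mL was then −1.46.

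Libraries that did not overlap with vehicle were counted as well. At 20 µg/mL, 24 genes had all 3 libraries below all 3 vehicle libraries, as 10.8% of tested genes did. At 100 µg/mL this held for 46 genes (13.3% of tested genes), and at 500 µg/mL for 50 (20.3%). Between doses, the libraries at 100 µg/mL lay below those at 20 µg/mL in 40 genes (8.19% of tested genes), and those at 500 below those at 100 µg/mL in 50 (15.5%).

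Other genes of the division machinery, held in separate lists, moved the same way at 500 µg/mL, with smaller medians. Over all tested genes, 16.8% were called lower at that dose and 16.5% higher. Of 35 further kinetochore, centromere and checkpoint genes, 28 fell and 7 were not called (median −0.71). Casc5, the kinetochore scaffold KNL1 (−1.41 ± 0.0758), and Kntc1 (−1.36 ± 0.0914), of the checkpoint complex that recruits dynein, were among those with the smallest p-values. Of 32 further spindle, centrosome and cytokinesis genes, 29 fell and 3 were not called (median −0.98). Iqgap3 (−1.31), Dlgap5 (−1.24) and Arhgap11a (−0.97) had the smallest p-values, while the most negative value of the list was −1.48. Of 34 genes of mitotic entry, exit and chromosome structure, 19 fell, 12 were not called and 3 rose (median −0.30). The condensin subunit Ncapd2 (−0.91), Cdca3 (−1.18) and Smc2 (−0.77) had the smallest p-values, while the most negative value of the list was −1.34. The 3 that rose were Ncaph2 (0.17), of the condensin II complex, and Anapc2 (0.26) and Anapc4 (0.17), core subunits of the anaphase-promoting complex. Of 38 genes of DNA replication and the G1/S transition, 33 fell and 5 were not called (median −0.57). Ccna2, cyclin A2, fell from 44.8 ± 1.46 to 16.3 ± 0.851 CPM (−1.46 ± 0.0510), and Mcm5 (−1.33), of the replicative helicase, and Uhrf1 (−1.20), which maintains DNA methylation, had the next smallest p-values. At 100 µg/mL 4, 15, 7 and 7 genes of these lists fell, in the order given, and 1 rose, the G1/S activator E2f2 (0.26 ± 0.0455). There 2.22% of all tested genes were called lower and 2.09% higher.

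The listed regulators of the cell cycle did not move as one. The list holds genes of DREAM, MuvB, NF-Y and the CDK inhibitors, and also E2f7, E2f8 and Trp53. Of its 23 tested genes, 10 fell, 3 rose and 10 were not called at 500 µg/mL (median −0.09). The shares over all tested genes were 16.8% called lower and 16.5% called higher. Mybl2, the activator B-MYB, fell from 5.59 ± 0.270 to 2.03 ± 0.459 CPM (−1.45 ± 0.121, adjusted p = 1.09e-08), and the repressors E2f7 (−1.44) and E2f8 (−0.89) fell as well. Lin9, a core MuvB subunit, fell by 0.38 ± 0.0943. E2f4, the E2F of DREAM, was at 78.5 ± 4.65 and 75.4 ± 5.89 CPM and was not called (−0.06, adjusted p = 0.439). The genes that rose were Lin37 (0.26), another MuvB subunit, Rbl2 (0.15), which encodes the pocket protein p130, and Cdkn1a (0.19 ± 0.0358, adjusted p = 0.000454). Cdkn1a, the CDK inhibitor p21, measured 1655 ± 48.7 CPM with vehicle and 1882 ± 46.3 at 500 µg/mL. Other CDK inhibitors went both ways by mean. Cdkn1b went from 60.3 ± 0.882 to 64.7 ± 1.92 CPM, without a call. Cdkn1c went from 9.92 ± 0.340 to 7.42 ± 0.798, Cdkn2c from 17.9 ± 0.956 to 14.9 ± 0.636 and Cdkn2d from 14.1 ± 0.334 to 12.8 ± 0.766.

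**Figure D5:**
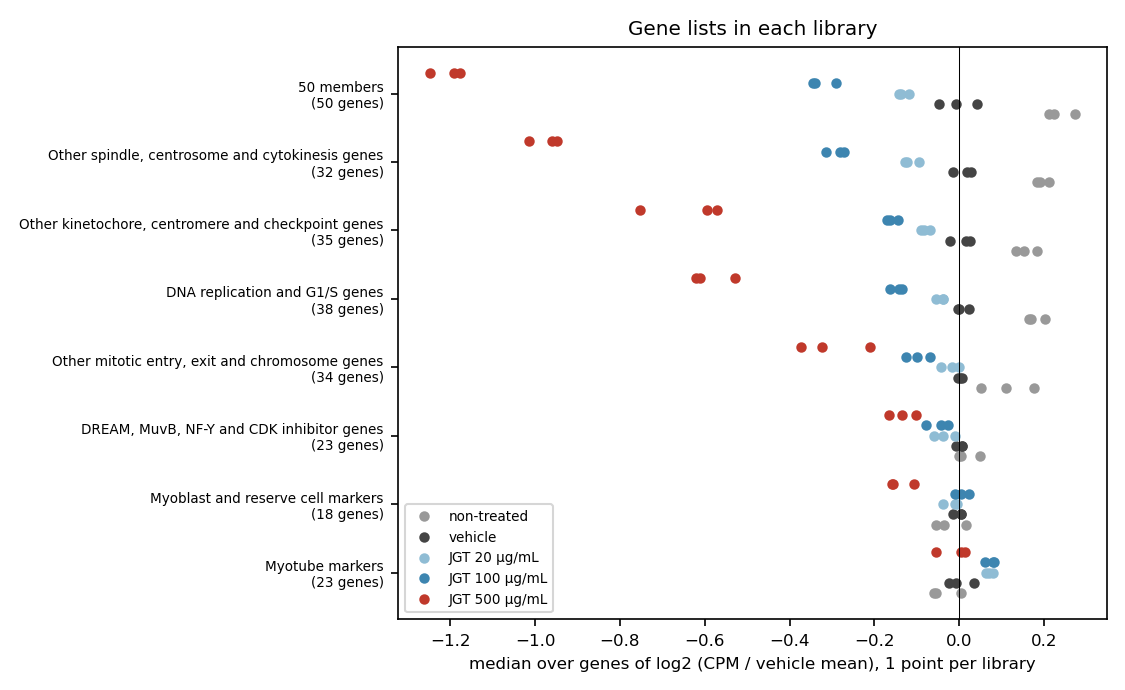
Points are the median log2 CPM of each gene list relative to the vehicle mean in single libraries, coloured by group. The 50 mitotic genes lie between −1.25 and −1.18 at 500 µg/mL, and the marker lists of myotubes and myoblasts stay nearer to 0.

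Lists of myoblast, myotube and fibroblast markers and of apoptosis genes were read beside these falls. For comparison, 16.8% of all tested genes were called lower at 500 µg/mL and 16.5% higher. Of 18 tested myoblast and reserve cell markers, 8 fell, 2 rose and 8 were not called at 500 µg/mL (median −0.11). Their summed level ran from 6519 to 7954 CPM there and from 6588 to 7072 with vehicle. Des alone gave 3565 ± 191 CPM with vehicle and 4347 ± 672 at 500 µg/mL. The sum therefore says little about the markers with lower levels. Vcam1 (−0.53), Heyl (−0.86) and Spry1 (0.47) had the smallest p-values, and Des (0.29) was the other that rose. Pax7, which marks satellite and reserve cells, fell from 31.7 ± 2.35 to 25.8 ± 2.07 CPM (−0.30 ± 0.0711), and Myod1 stayed at 165 ± 3.90 and 166 ± 7.97 CPM. Calcr, a marker of quiescent satellite cells, had 0 counts in every library. Of 23 myotube markers, 6 rose, 7 fell and 10 were not called (median 0.01), with a sum of 28035 to 29463 CPM against 28567 to 30147 with vehicle. Among the 6 that rose was Myog (0.26), and the 7 that fell were Myh4 (−0.80), Ckm (−0.48), Atp2a1 (−0.37), Myh8 (−0.38), Myh7 (−0.46), Myh2 (−0.27) and Myh3 (−0.18). Other contractile and calcium-handling markers had higher means at 500 µg/mL than with vehicle. Casq2 went from 703 ± 22.0 to 919 ± 109 CPM, Tnni2 from 351 ± 8.18 to 435 ± 58.0 and Mylpf from 2333 ± 63.2 to 2772 ± 287. Of 9 fibroblast markers, 5 fell, 2 rose and 2 were not called (median −0.31). Their sum ran from 7113 to 8435 CPM against 7432 to 7617 with vehicle. Col3a1 alone gave 2993 ± 49.6 CPM with vehicle and 4256 ± 472 at 500 µg/mL. Pdgfra (0.71), Col3a1 (0.51) and Col1a2 (−0.31) led by p-value, and Thy1, a defining fibroblast marker, had 10 counts over all 15 libraries. Of 13 apoptosis genes, 4 rose, among them Bmf (0.81), Bcl2l11 (0.34) and Bax (0.21), 1 fell and 8 were not called. The part of these shifts in the falls of the 50 genes was not tested.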

How the data were processed

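Messenger RNA sequencing was measured in 15 libraries of C2C12 myotubes, 5 groups of 3, taken from the titles in the labels. The values deposited by the authors are expected counts per gene symbol, 9.34% of them not whole (tolerance 0.005). The submitters' processing notes name FastQC 0.11.9, Trim Galore 0.6.5, STAR 2.7.3a, RSEM 1.3.3 and the build GRCm38 (mm10). The sources used here do not give the annotation, the strand setting or the role of each tool. The expected counts were rounded to whole numbers, filtered with edgeR's filterByExpr and scaled by TMM (factors 0.988 to 1.02). Differences were tested with edgeR 4.0.16 (quasi-likelihood F test, limma 3.58.1, R 4.3.3) on all 14461 tested genes and 15 libraries (10 residual degrees of freedom), with Benjamini-Hochberg adjustment over all genes and a threshold of 0.05. A called gene is one past it. Library totals ran from 26012844 to 36854199 counts, and edgeR's common dispersion of 0.00282 amounts to a coefficient of variation of 5.31% between libraries of a group. CPM are TMM-scaled and were computed here from the deposited counts. The script was tested on simulated data.

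The genes named are 18 chosen by function, the 4 lowest and 4 highest log2 fold changes of each comparison and, of the other lists, the 3 smallest p-values at 500 µg/mL, genes called against their list's median and 5 regulators. A few genes that this rule names are not reported here. Other genes of the set and of the lists are given beside them to complete a complex or role, and were chosen after their values were seen. The 9 other lists are further kinetochore, spindle and mitotic entry genes, DNA replication genes, DREAM and CDK inhibitor genes, myoblast, myotube and fibroblast markers and apoptosis genes. The set and the lists were chosen with earlier results of these data known. Promoters came from RefSeq (GRCm38.p6), and exon overlaps and lengths from the GENCODE annotation of the same build. Alternatives were DESeq2 1.42.0, other scalings and filters, fits of the compared groups only, a replicate block, another reference group and leaving out each library.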

Additional observations from a re-analysis of the deposited data

Results flagged for a closer look

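The change from 100 to 500 µg/mL differed from that from 20 to 100 µg/mL, each a 5-fold step in dose, for 41 of the 50 genes by edgeR's quasi-likelihood test of the difference itself, all of them with the larger fall in the upper step. This difference between steps is why the genes are listed here. Leaving out each JGT library in turn gave between 29 (without JGT 100 µg/mL replicate 2) and 46 genes.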

How the results depend on the processing

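At 500 µg/mL all 50 genes were called lower than vehicle under every alternative and without any 1 library. Between 49 and 50 were called lower than at 100 µg/mL. At 100 µg/mL the count against vehicle ran from 33 to 43 under other tools, scalings, filters and sample sets, against 34, and from 25 to 32 with 1 library left out. The difference between the dose steps was called for 36 to 42 genes under these alternatives. The smaller comparisons moved. Vehicle against non-treated cells gave 17 genes, 29 with only the groups compared in the fit and 5 to 11 with 1 library left out. At 20 µg/mL the count of 0 became 1 with DESeq2, 1 without the low-count filter, 6 with only the groups compared in the fit and 38 with non-treated cells as the reference, and stayed 0 with any 1 library left out. From 20 to 100 µg/mL the count of 2 became 4 with DESeq2, 14 with only the groups compared in the fit, and 0 to 2 with 1 library left out. No gene of the set was called higher in any of these. Over all 50 genes, the 7 comparisons and these alternatives other than leaving out a library, 2469 of 2600 log2 fold changes kept their direction and side of the threshold, 114 passed it newly, 14 no longer passed it and 3 changed sign. The 3 were Bub1 (−0.23), Pbk (−0.34) and Kif15 (−0.36) at 20 µg/mL with non-treated cells as the reference. Over all tested genes, the 321 called lower at 100 µg/mL became 178 to 224 with 1 library left out, and the 22 at 20 µg/mL became 7 to 18.

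The labels' replicate numbers did not pair the libraries: of 30 correlations between same-numbered libraries of different groups, 2 were over 0.1 (range −0.314 to 0.117). With the replicate number as a block, the counts called lower were 17, 0, 34, 50, 2, 50 and 41 for vehicle, 20, 100 and 500 µg/mL, the 20 to 100 and 100 to 500 µg/mL steps and their difference, so the block moved no count, although at 100 µg/mL Cdca8 lost its call (adjusted p = 0.057 by edgeR) and Kif22 gained one (0.0178). Scaling by library totals alone moved the share of higher genes among all called genes from 45.9% to 58.5% for 500 against 100 µg/mL, from 69.4% to 55.9% for 100 against 20 µg/mL and from 24.3% to 34.8% for the difference between the steps. With 3 libraries a group, edgeR called none of the changes of the set at 20 µg/mL in the main fit. The smallest change that could be detected there was not measured.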
